A study of Mus musculus with 9 samples.

Results

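The 43 genes described here encode the machinery that separates chromosomes and divides the cell: kinetochore and centromere proteins, spindle checkpoint kinases, the chromosomal passenger complex, spindle motors, the central spindle and contractile ring, and the factors that start anaphase. They were taken by name from the deposited expression table, in which they are 43 of 56748 genes. All 43 passed the filter on low values, at least 10 normalized counts in at least 3 libraries, which left 17338 genes for testing. The samples were wild-type (WT) primary mouse airway basal stem cells from the trachea, kept as an air-liquid interface (ALI) culture, a format in which the medium lies under the cells and air above them and in which basal cells give rise to differentiated airway epithelium. RNA was sequenced on day 1, day 3 and day 5, with 3 libraries a day, and the comparisons ask how expression differed between those days. The labels name no treatment that separates the groups other than time, and they do not say that replicates came from separate mice or cultures, so the p-values rest on the spread among these 9 libraries alone, which may be technical.

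In a dividing cell, the centromere-specific histone CENP-A marks where the inner kinetochore assembles, and the outer kinetochore (KNL1, the MIS12 complex and the NDC80 complex) binds spindle microtubules. Unattached kinetochores recruit BUB1, BUBR1 (encoded by Bub1b), MAD2 and the kinase MPS1 (encoded by Ttk), which hold back the anaphase-promoting complex until every chromosome is attached; its activator CDC20 then drives destruction of securin and cyclin B. Most of these genes are transcribed in late S, G2 and M phase through CHR and CCAAT elements in their promoters, which are bound by the MuvB-based complexes DREAM, B-MYB and FOXM1 and by NF-Y. In the adult trachea basal cells are the main dividing stem cells, and their luminal descendants divide less.

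To show the elements that these genes share, and the exceptions, 6 promoters are printed from RefSeq (assembly GRCm38.p6, matched by gene symbol; the authors' own build was GRCm39, per the submitters' processing notes). Each window runs 5′ to 3′ on the gene's own strand, from 250 bases before the annotated start to 50 bases after it, in lower case, with matches to the CHR (TTTGAA or TTCGAA) and to CCAAT in capitals on either strand. Cenpm and Pttg1 had the largest rises by day 3, Cenpa is the centromeric histone, Ube2c passed in neither direction by day 3, and Bub1 and Anln had the largest falls by day 5. The windows lie at chr15:82244287-82244586 on the minus strand (Cenpm), chr11:43425932-43426231 on the minus strand (Pttg1), chr5:30666636-30666935 on the plus strand (Cenpa), chr2:164769679-164769978 on the plus strand (Ube2c), chr2:127831810-127832109 on the minus strand (Bub1) and chr9:22389157-22389456 on the minus strand (Anln).
Cenpm: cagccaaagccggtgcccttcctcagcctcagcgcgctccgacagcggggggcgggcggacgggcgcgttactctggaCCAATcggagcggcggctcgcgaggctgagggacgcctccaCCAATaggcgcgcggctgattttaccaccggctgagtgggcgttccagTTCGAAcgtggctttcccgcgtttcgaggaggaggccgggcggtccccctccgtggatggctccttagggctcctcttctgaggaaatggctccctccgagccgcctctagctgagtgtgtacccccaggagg
Pttg1: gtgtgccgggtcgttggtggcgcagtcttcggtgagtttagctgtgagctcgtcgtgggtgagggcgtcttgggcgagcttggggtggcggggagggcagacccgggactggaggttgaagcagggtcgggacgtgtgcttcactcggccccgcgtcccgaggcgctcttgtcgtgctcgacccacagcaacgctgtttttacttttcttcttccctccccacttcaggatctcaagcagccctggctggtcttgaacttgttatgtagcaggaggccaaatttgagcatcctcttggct
Cenpa: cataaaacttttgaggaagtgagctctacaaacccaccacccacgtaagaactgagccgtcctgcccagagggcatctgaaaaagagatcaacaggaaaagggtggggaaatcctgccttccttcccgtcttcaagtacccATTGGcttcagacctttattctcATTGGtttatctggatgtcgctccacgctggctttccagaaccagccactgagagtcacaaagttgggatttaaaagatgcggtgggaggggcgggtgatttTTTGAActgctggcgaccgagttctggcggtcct
Ube2c: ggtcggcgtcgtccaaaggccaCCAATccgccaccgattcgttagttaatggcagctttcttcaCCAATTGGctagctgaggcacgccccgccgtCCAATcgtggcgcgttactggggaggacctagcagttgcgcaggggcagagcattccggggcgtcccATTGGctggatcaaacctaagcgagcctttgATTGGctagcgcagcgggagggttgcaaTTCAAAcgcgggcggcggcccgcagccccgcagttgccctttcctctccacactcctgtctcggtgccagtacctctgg
Bub1: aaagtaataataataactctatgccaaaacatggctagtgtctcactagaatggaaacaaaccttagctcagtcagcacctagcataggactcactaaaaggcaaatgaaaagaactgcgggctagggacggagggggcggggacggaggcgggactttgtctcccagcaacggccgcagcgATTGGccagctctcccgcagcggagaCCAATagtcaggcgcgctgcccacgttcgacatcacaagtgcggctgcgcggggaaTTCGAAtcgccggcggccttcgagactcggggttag
Anln: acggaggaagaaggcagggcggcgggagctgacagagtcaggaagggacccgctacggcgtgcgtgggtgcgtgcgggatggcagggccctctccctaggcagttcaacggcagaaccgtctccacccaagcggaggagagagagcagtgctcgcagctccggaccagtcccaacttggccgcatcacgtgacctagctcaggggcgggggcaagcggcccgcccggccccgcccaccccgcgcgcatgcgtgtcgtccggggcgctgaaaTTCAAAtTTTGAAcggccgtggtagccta

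The Cenpm window held 1 CHR match, whose first base lies 83 bases before the start, and 2 CCAAT matches. Cenpa and Bub1 each held 1 CHR match just after the start, 17 and 15 bases from it, and 2 CCAAT matches upstream. The Ube2c window held 6 CCAAT matches, of which 2 overlap on opposite strands in the letters CCAATTGG, and 1 CHR match. Anln held 2 CHR matches next to each other and no CCAAT match, and Pttg1 held neither motif in this window.

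Of the 43 genes, 38 matched at least 1 promoter window in the RefSeq table, with 42 windows in all; Tpx2, Spc24, Incenp, Kif20a and Aurkb had no entry. A CHR match was present in 33 of the 42 windows (78.6%), against 19.2% of all 32851 windows of the same length. CCAAT was present in 32 of the 42 windows (76.2%), against 37.4% of all windows, and both motifs in 28 of the 42 (66.7%), against 7.52% of all windows. An E2F lettering (TTTGGCGC, TTTCCCGC, TTTGCCGC or TTTCGCGC, either strand) was found in 2 of the 42 windows (4.76%), those of Cenpm and Kif18a, against 2.26% of all windows. Genes without a CHR match were Pttg1, Cenpk, Birc5, Cenpe, Nuf2, Mad2l1 and Kif18a. Among genes with a window, 3 of the 7 whose mean was highest on day 3 had no CHR match, against 4 of the 31 whose mean was highest on day 1. Of those 3 (Pttg1, Cenpk and Birc5), only Pttg1 was called higher on day 3 than on day 1. A link between the motif and the time course was not tested. These are letter matches and say nothing about binding.

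**Figure D1:**
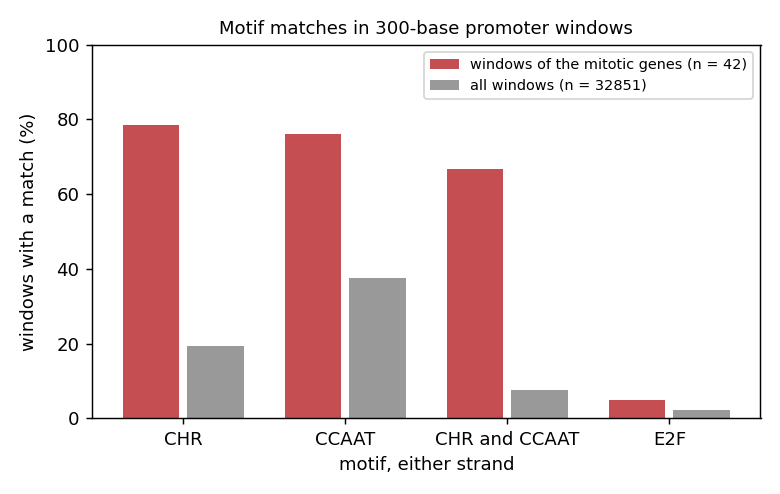
The share of 300-base promoter windows (%, vertical axis) that hold each motif on either strand, for the 42 windows of the mitotic genes (red) and all 32851 RefSeq windows (grey). CHR and CCAAT together were present in 66.7% of the windows of the mitotic genes and in 7.52% of all windows.

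The reads behind the deposited values numbered 30.8 ± 4.29 M per library (day 1), 21.9 ± 2.55 M (day 3) and 17.6 ± 1.51 M (day 5) (SD, n = 3 each). Basal cell markers were present throughout, with summed normalized counts over 9 genes of 252682 to 265186 on day 1, 409570 to 469107 on day 3 and 230388 to 314850 on day 5. The 6 club and luminal cell markers summed to 77958 to 79462 on day 1, 176942 to 205029 on day 3 and 390092 to 511153 on day 5, and the 9 multiciliated cell markers to 154 to 212, 271 to 340 and 5473 to 6807. Fibroblast markers (8 genes) summed to 33.2 to 39.0 on day 1, 5.36 to 12.8 on day 3 and 151 to 186 on day 5. Of these, 2 passed the filter, Dcn among them, which had no read on day 1 or day 3. Dcn thus passed only through day 5, so its call of higher on day 5 was fixed by the filter and is not used. Endothelial, muscle and cartilage markers (10 genes) summed to 365 to 619, 167 to 310 and 215 to 284. The 8 leukocyte markers summed to 253 to 284 on day 1, 2147 to 2219 on day 3 and 63451 to 81616 on day 5, and the defining marker Tyrobp had no read on any day and Ptprc none on day 3. The 3 leukocyte markers that passed the filter were Cd68, Itgam and Lyz2. Cd68 had 256, 245 and 278 on day 1, then 1594, 1542 and 1699 on day 3, then 146, 179 and 164 on day 5. Itgam averaged 18.2 ± 5.76 on day 3, against 3.73 ± 0.388 on day 1. Its day 1 mean lies under the filter, so its call of higher by day 3 follows in part from passing it and is not used. Lyz2 averaged 70299 ± 9766 on day 5 (SD, n = 3) and made up most of the day 5 sum. Transcripts of the Y-linked genes Ddx3y, Eif2s3y, Uty and Kdm5d summed to 3137 ± 113 (day 1), 324 ± 24.2 (day 3) and 461 ± 98.3 (day 5), and Xist stood at 1825 ± 246, 5998 ± 507 and 7373 ± 1292 (SD, n = 3 each). The sex-linked transcripts, the markers of differentiated cells and the sums of the leukocyte and fibroblast markers thus moved with the day, and their part in the results was not tested. A change between days cannot be told apart from a difference in the animals or cultures sampled on each day.

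By day 5 expression had fallen below day 1 in 42 of the 43 genes, and 32 of them fell in both steps (7.85% of all tested genes did). Together they took 0.487 ± 0.0277% of the reads on day 1, 0.213 ± 0.0147% on day 3 and 0.0793 ± 0.00578% on day 5 (SD, n = 3 each), and their summed normalized counts were 104109 ± 8696, 54741 ± 848 and 16172 ± 770. The median gene kept 55.1% of its day 1 mean on day 3 and 15.3% on day 5. In these bulk samples fewer dividing cells and less of each RNA per cell cannot be told apart.

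Between day 3 and day 1, 34 of the 43 genes were lower on day 3 (limma, adjusted p under 0.05; 37.0% of all tested genes were called lower) and 6 were higher (36.1% of all tested genes), namely Cenpa, Cenpm, Cenpw, Spc24, Kif22 and Pttg1. Cenpk, Birc5 and Ube2c passed in neither direction (73.0% of all tested genes passed in one or the other). The median log2 change over the 43 genes was −0.88, beside 0.00 over all tested genes. All 3 day 3 libraries lay below all 3 day 1 libraries for 34 genes (39.4% of all tested genes) and above them for 7 (37.9%), the 6 called genes and Cenpk.

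The second step was more uniform. Between day 5 and day 3, 41 genes were lower on day 5 (32.4% of all tested genes) and 1, Kif20a, was higher (34.8%), while Prc1 did not pass (67.3% of all tested genes passed in either direction); the median log2 change was −1.68, beside 0.06 over all tested genes. The day 5 libraries lay wholly below the day 3 libraries for 40 genes (34.2% of all tested genes) and wholly above them for 0 (36.8%); the ranges of Kif20a, Kif18a and Prc1 overlapped.

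Over the whole course, day 5 against day 1, 42 genes were lower (37.7% of all tested genes) and 1, Pttg1, was higher (36.7%; 74.5% in either direction), with a median log2 change of −2.72 beside −0.06 over all tested genes. The same 42 lay wholly below day 1 in all 3 libraries (38.9% of all tested genes) and Pttg1 wholly above (38.0%). For 31 genes every day 1 library was above every day 3 library and every day 3 library above every day 5 library, as for 9.31% of all tested genes. The F test across the 3 days called all 43 genes, against a background of 91.4% of all tested genes. The day comparisons share libraries, so their counts are not independent.

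**Figure D2:**
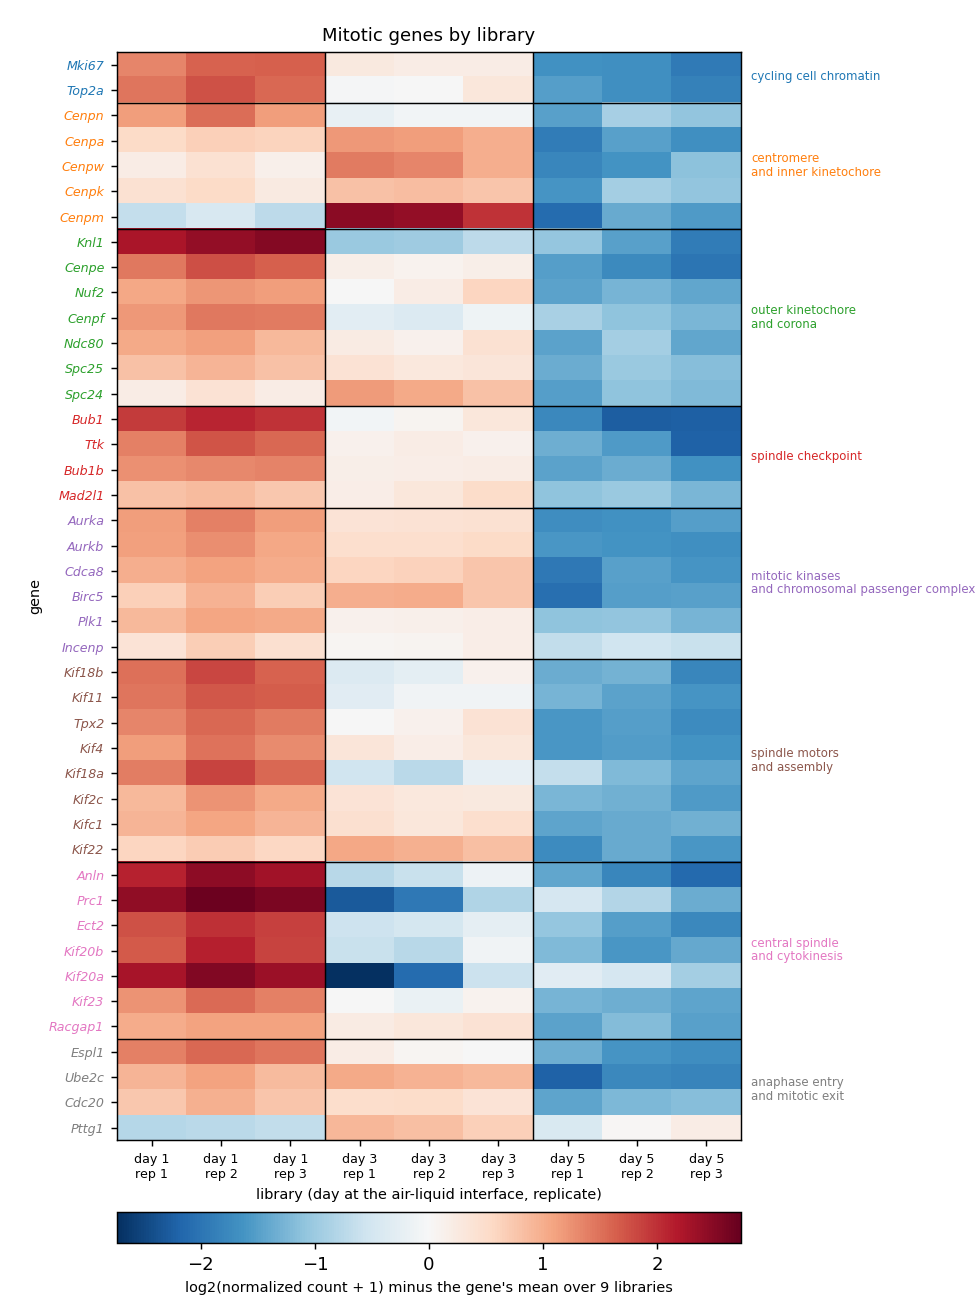
Each row is 1 mitotic gene and each column 1 library (3 replicates on day 1, day 3 and day 5); colour is log2(normalized count + 1) minus the gene's mean over the 9 libraries, red above and blue below it. Most rows run from red on day 1 to blue on day 5, while Cenpa, Cenpw, Cenpm, Spc24, Kif22 and Pttg1 are reddest on day 3, and Kif20a and Prc1 are bluest on day 3.

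The general marks of cycling cells fell in both steps. Mki67 (ENSMUSG00000031004), which encodes the Ki-67 protein that coats mitotic chromosomes, had 9124, 10954 and 11244 normalized counts in the day 1 libraries, 4355, 4129 and 4138 in those of day 3, and 1144, 1117 and 944 in those of day 5. Each day's libraries lay wholly below those of the day before. Its log2 change was −1.31 ± 0.11 (SE) for day 3 against day 1 (limma, adjusted p = 2.9e-06) and −1.98 ± 0.11 for day 5 against day 3 (adjusted p = 2.8e-07), and 10.2% of the day 1 mean was left on day 5. Its call by day 3 was lost after length and GC correction, in which the trend of all genes with transcript length and GC content was taken out (−0.13, adjusted p = 0.24), while its fall by day 5 was kept. Top2a is the topoisomerase that untangles sister chromatids. Its libraries held 10941, 13365 and 11886 normalized counts on day 1, 3915, 3974 and 4927 on day 3, and 1404, 1255 and 1103 on day 5. No day overlapped the next; the log2 change was −1.50 ± 0.13 by day 3 (adjusted p = 3.3e-06) and −3.27 ± 0.13 by day 5 (adjusted p = 1.1e-08), when 10.4% of the day 1 mean was left.

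The centromere and inner kinetochore genes held 3 of the 6 early rises: Cenpa, Cenpm and Cenpw rose by day 3, Cenpn fell, and Cenpk did not pass. All 5 then fell by day 5. Of all tested genes, 36.1% were called higher by day 3 and 32.4% lower between day 3 and day 5. Cenpa (ENSMUSG00000029177), the centromeric histone H3 variant, had 3690, 3573 and 3236 normalized counts on day 3, against 2337, 2550 and 2479 on day 1. The 2 days did not overlap (log2 change 0.51 ± 0.11, adjusted p = 0.0019), and on day 5 Cenpa dropped to 431, 580 and 511, which is 14.5% of its day 3 mean (log2 change −2.79 ± 0.11, adjusted p = 7.4e-08). Its rise by day 3 was 0.33 after length and GC correction (adjusted p = 0.0073). Cenpm (ENSMUSG00000068101), a subunit of the constitutive centromere-associated network, had the largest rise of the 43 genes. It had 1986, 1896 and 1419 normalized counts on day 3, against 229, 267 and 218 on day 1, a day 3 mean of 743% of the day 1 mean (log2 change 2.88 ± 0.20, adjusted p = 1.1e-06). It also had the largest fall of the second step, to 83.2, 138 and 123 on day 5 (log2 change −3.95 ± 0.20 against day 3, adjusted p = 1.8e-07), so that its day 5 libraries lay below even the day 1 libraries (log2 change −1.07 ± 0.20, adjusted p = 5.9e-04). Its rise by day 3 was 1.97 on the log2 scale after length and GC correction.

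Cenpw, which encodes a histone-fold subunit of the same network, had 706, 665 and 524 normalized counts on day 3, against 304, 352 and 290 on day 1 (log2 change 0.99 ± 0.19, adjusted p = 7.9e-04). The 2 days did not overlap, and on day 5 it stood at 75.3, 83.9 and 121. Cenpk, whose product helps to bridge the inner and outer kinetochore, had 306, 312 and 295 on day 3, against 235, 252 and 209 on day 1 (log2 change 0.39 ± 0.19, adjusted p = 0.079). Its 3 day 3 libraries lay above all 3 day 1 libraries, and its call was made with only those 2 days in the fit (adjusted p = 0.015), without day 5 replicate 1 (adjusted p = 0.018), with voom (adjusted p = 0.022) and after length and GC correction (log2 change 0.73, adjusted p = 0.0081). Cenpn, which recognises the CENP-A nucleosome, went the other way. It had 207, 226 and 226 normalized counts on day 3, against 532, 690 and 527 on day 1 (log2 change −1.39 ± 0.17, adjusted p = 3.9e-05), and 85.2, 128 and 113 on day 5.

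**Figure D3:**
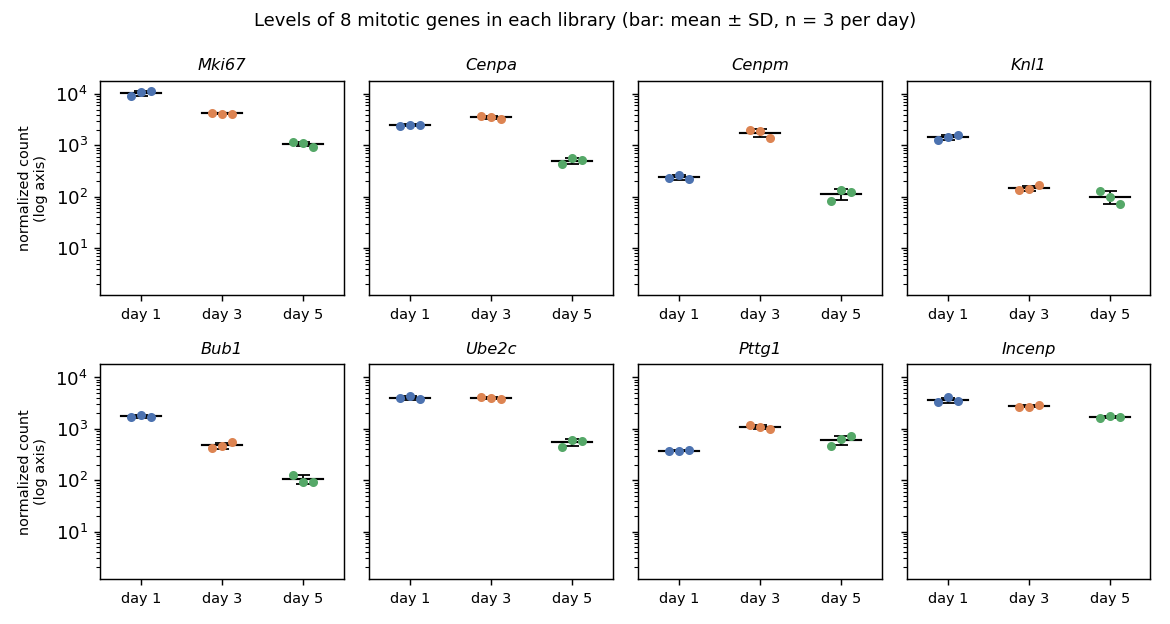
Normalized counts (log axis) of 8 mitotic genes in each of the 3 libraries of day 1, day 3 and day 5; points are libraries, the horizontal bar is the mean and the whiskers its SD (n = 3). Cenpa, Cenpm and Pttg1 are higher on day 3 than on day 1, the day 3 and day 1 points of Ube2c overlap, and Mki67, Knl1, Bub1 and Incenp are lower on day 3 than on day 1.

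Of the 7 outer kinetochore and corona genes, 6 fell by day 3 (37.0% of all tested genes were called lower) and Spc24 rose. All 7 fell between day 3 and day 5 (32.4% of all tested genes). Knl1 (ENSMUSG00000027326), the scaffold that docks the checkpoint proteins, had the deepest fall of this group. It had 135, 141 and 167 normalized counts on day 3, against 1290, 1457 and 1567 on day 1, or 10.3% of the day 1 mean (log2 change −3.28 ± 0.20, adjusted p = 6.4e-07; −2.02 after length and GC correction). On day 5 it stood at 132, 98.1 and 72.6, just below the day 3 libraries (log2 change −0.58 ± 0.20, adjusted p = 0.026). That second fall did not pass when day 3 replicate 3 (−0.49, adjusted p = 0.082), day 5 replicate 2 (−0.58, adjusted p = 0.060) or day 5 replicate 3 (−0.37, adjusted p = 0.083) was left out, nor with only the 2 days in the fit (adjusted p = 0.064), with TMM scaling (−0.51, adjusted p = 0.058), voom or scaling to library totals.

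The 4 subunits of the NDC80 complex, which grips the microtubule end, did not move as one. Ndc80 had 407, 382 and 468 normalized counts on day 3, against 712, 757 and 650 on day 1 (log2 change −0.76 ± 0.16, adjusted p = 0.0014). Nuf2, its partner in the head of the complex, had 436, 507 and 664, against 922, 1017 and 977 (log2 change −0.88 ± 0.15, adjusted p = 3.2e-04). Spc25 had 576, 534 and 551, against 763, 839 and 767 (log2 change −0.51 ± 0.11, adjusted p = 0.0021). These 3 subunits lay wholly below their day 1 libraries. Spc24, which pairs with Spc25, had 1150, 1040 and 893 on day 3, against 584, 673 and 591 on day 1, wholly above them (log2 change 0.73 ± 0.14, adjusted p = 6.6e-04; 0.16, adjusted p = 0.17, after length and GC correction). On day 5 all 4 were low, with Ndc80 at 126, 183 and 130, Nuf2 at 160, 182 and 164, Spc25 at 171, 218 and 196, and Spc24 at 179, 238 and 219 normalized counts.

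The corona genes fell in both steps, with first falls that were much smaller after length and GC correction (−0.34 for Cenpe, −0.27 for Cenpf). Cenpe, a kinesin that carries chromosomes toward the spindle equator, had 2460, 3037 and 2804 normalized counts on day 1, 1005, 959 and 1002 on day 3, and 314, 268 and 225 on day 5. No day overlapped the next, and 9.73% of the day 1 mean was left (log2 change −3.36 ± 0.13 for day 5 against day 1, adjusted p = 9.4e-09). Cenpf, a large corona protein, had 1849, 2189 and 2158 on day 1, 667, 627 and 742 on day 3, and 437, 376 and 338 on day 5. Its first fall (log2 change −1.60 ± 0.12) was larger than its second (−0.83 ± 0.12), and the difference between the steps passed (0.78 ± 0.21, adjusted p = 0.0070), but it reversed to −1.06 after length and GC correction.

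All 4 spindle checkpoint genes fell in each step (7.85% of all tested genes were called lower in both). Bub1 (ENSMUSG00000027379), the kinase that marks centromeric chromatin and recruits the other checkpoint proteins, lost the most of all 43 genes by day 5. It had 1667, 1876 and 1737 normalized counts on day 1, 421, 463 and 547 on day 3, and 129, 91.6 and 93.5 on day 5. Only 5.95% of its day 1 mean was left (log2 change −4.08 ± 0.15, adjusted p = 8.7e-09). Bub1b, whose product BUBR1 inhibits CDC20, had 2233, 2347 and 2398 on day 1, 1044, 1072 and 1089 on day 3, and 341, 365 and 298 on day 5 (log2 change −2.80 ± 0.10 for day 5 against day 1, adjusted p = 6.0e-09). Ttk, the MPS1 kinase that starts the signal, had 794, 1005 and 912, then 333, 351 and 333, then 121, 105 and 65.2 on those days (−3.25 ± 0.20, adjusted p = 1.9e-07). In all 3 genes each day lay wholly below the day before.

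Mad2l1, which encodes MAD2, lost the least of the checkpoint genes. It had 1210, 1334 and 1510 normalized counts on day 3, against 1860, 1951 and 1783 on day 1 (log2 change −0.47 ± 0.11, adjusted p = 0.0022), and 497, 529 and 447 on day 5. The days did not overlap. After length and GC correction, its change by day 3 reversed to 0.72 (adjusted p = 5.5e-04); that value rests on an annotated principal transcript of 7.557 kb, while the shortest coding transcript of the gene is 1.725 kb. Its fall from day 1 to day 5 kept its direction and its call in every alternative.

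Of the 6 genes for mitotic kinases and the chromosomal passenger complex, 5 fell by day 3 (37.0% of all tested genes) and Birc5 did not pass. All 6 fell between day 3 and day 5 (32.4% of all tested genes). Aurka, the Aurora kinase that works at the spindle poles, had 1779, 2100 and 1773 normalized counts on day 1, 1048, 1055 and 1071 on day 3, and 249, 253 and 283 on day 5. Aurkb, the kinase of the passenger complex that corrects wrong attachments, had 1720, 1914 and 1641 on day 1, 1080, 1079 and 1133 on day 3, and 260, 253 and 247 on day 5. The means left on day 5 were 13.9% (Aurka) and 14.4% (Aurkb) of day 1, with log2 changes of −2.84 ± 0.10 (adjusted p = 6.7e-09) and −2.79 ± 0.09 (adjusted p = 4.6e-09). Plk1, the polo-like kinase that acts from mitotic entry to cytokinesis, had 2097, 2401 and 2315 on day 1, 1229, 1251 and 1280 on day 3, and 530, 538 and 466 on day 5, 22.5% of the day 1 mean (log2 change −2.15 ± 0.09, adjusted p = 1.8e-08). All 3 kinases fell without overlap in each step.

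Birc5, Cdca8 and Incenp encode the partners of Aurora B. Birc5, which encodes survivin, had 2930, 2951 and 2466 normalized counts on day 3, against 2312, 2813 and 2345 on day 1. These ranges overlapped (log2 change 0.16 ± 0.16, adjusted p = 0.38), and after length and GC correction the change was −0.45 (adjusted p = 0.0050). On day 5 Birc5 stood at 348, 518 and 523, 16.6% of the day 3 mean (log2 change −2.60 ± 0.16, adjusted p = 5.3e-07). Cdca8, which encodes borealin, had 1666, 1734 and 1875 on day 3, against 2217, 2373 and 2235 on day 1 (log2 change −0.37 ± 0.12, adjusted p = 0.016), and 285, 395 and 362 on day 5. Its fall by day 3 did not pass without day 1 replicate 2 (−0.34, adjusted p = 0.051), without day 3 replicate 1 (−0.33, adjusted p = 0.059) or with quantile normalization (−0.27, adjusted p = 0.093). Incenp, the scaffold of the complex, kept the most of the 42 genes that fell by day 5 apart from Cenpm: it had 2628, 2701 and 2900 on day 3, against 3319, 4077 and 3457 on day 1, and 1602, 1761 and 1681 on day 5, or 46.5% of the day 1 mean (log2 change −1.10 ± 0.10, adjusted p = 2.2e-06).

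Among the 8 genes for spindle motors and assembly, 7 fell by day 3 (37.0% of all tested genes) and Kif22 rose. All 8 fell between day 3 and day 5 (32.4% of all tested genes). Kif11, the motor that pushes the spindle poles apart, had 2253, 2640 and 2571 normalized counts on day 1, 656, 763 and 764 on day 3, and 334, 293 and 265 on day 5 (log2 change −3.06 ± 0.12 for day 5 against day 1, adjusted p = 9.4e-09). Tpx2, which activates Aurora A and nucleates microtubules near chromatin, had 3375, 3966 and 3574 on day 1, 1335, 1458 and 1765 on day 3, and 443, 474 and 406 on day 5 (−3.04 ± 0.12, adjusted p = 1.1e-08). Both fell in each step without overlap. Kif4, a chromosome-bound motor that shortens the central spindle, had 1246, 1567 and 1380 on day 1, 702, 639 and 692 on day 3, and 185, 192 and 181 on day 5. Kif2c, a microtubule depolymerase at centromeres, had 1035, 1309 and 1143, then 722, 686 and 673, then 235, 225 and 190 on those days. They kept 13.3% (Kif4; log2 change −2.90 ± 0.11, adjusted p = 8.6e-09) and 18.6% (Kif2c; −2.42 ± 0.12, adjusted p = 4.5e-08) of the day 1 mean, and no day overlapped the next.

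Kif22, the motor that pushes chromosome arms outward, had 1977, 1862 and 1679 normalized counts on day 3, against 1424, 1553 and 1412 on day 1. The ranges did not overlap (log2 change 0.33 ± 0.11, adjusted p = 0.021), but the call was lost without any 1 of 4 libraries (day 1 replicates 1 and 3, day 3 replicates 1 and 2; 0.27 to 0.32, adjusted p = 0.062 to 0.085), when scaled to library totals (0.06, adjusted p = 0.58), and it reversed to −0.11 (adjusted p = 0.25) after length and GC correction. On day 5 Kif22 stood at 288, 369 and 318. Kif18a, which dampens chromosome movement, Kif18b, which limits astral microtubules, and Kifc1, a minus-end motor that focuses poles, all fell by day 3, with log2 changes of −2.11, −1.82 and −0.58. The second fall of Kif18a was small (109, 73.6 and 62.8 on day 5, against 117, 103 and 147 on day 3; log2 change −0.60 ± 0.23, adjusted p = 0.037) and its ranges overlapped. It did not pass without day 1 replicate 3, day 3 replicate 1, day 3 replicate 3, day 5 replicate 2 or day 5 replicate 3 (−0.62 to −0.43, adjusted p = 0.054 to 0.13), nor with TMM scaling (adjusted p = 0.073), scaling to library totals (−0.27, adjusted p = 0.36), voom (adjusted p = 0.076) or only the 2 days in the fit (adjusted p = 0.069). It was −0.92 (adjusted p = 9.5e-04) after length and GC correction. Of the Kifc1 transcript, 39.7% of 50-base stretches also occur in other annotated genes, Kifc5b among them, so its counts are uncertain; Kifc5b had 743, 643 and 678 normalized counts on day 1, then 297, 256 and 355 on day 3, then 118, 123 and 116 on day 5.

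The 7 central spindle and cytokinesis genes all fell by day 3 (37.0% of all tested genes were called lower). Their median log2 change was −2.36, beside −0.88 over the 43 genes (−1.56 and −0.75 after length and GC correction). Anln (ENSMUSG00000036777), which encodes anillin, the scaffold of the contractile ring, had 847, 937 and 1300 normalized counts on day 3, against 6163, 7814 and 7055 on day 1 (log2 change −2.79 ± 0.19, adjusted p = 1.2e-06), and 537, 417 and 331 on day 5, 6.11% of the day 1 mean. Ect2, the exchange factor that activates RhoA at the division plane, had 587, 621 and 725 on day 3, against 2890, 3472 and 3177 on day 1 (−2.30 ± 0.17, adjusted p = 1.4e-06), and 414, 305 and 254 on day 5. Both fell without overlap in each step. Racgap1 and Kif23 form centralspindlin, the complex that bundles midzone microtubules and recruits ECT2. Kif23 had 1338, 1186 and 1433 on day 3, against 3152, 3961 and 3484 on day 1 (−1.42 ± 0.11, adjusted p = 1.9e-06), and 556, 537 and 497 on day 5. Racgap1 had 1904, 2018 and 2135 on day 3, against 3291, 3510 and 3492 on day 1 (−0.77 ± 0.10, adjusted p = 4.6e-05), and 587, 711 and 583 on day 5. Kif20b, a midbody kinesin, kept 19.7% of its day 1 mean on day 3 and 10.2% on day 5.

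The lowest day 3 levels relative to day 1 belonged to Prc1 and Kif20a. Prc1 (ENSMUSG00000038943), the crosslinker of antiparallel midzone microtubules, had 101.2, 130 and 284 normalized counts on day 3, against 2692, 3228 and 3002 on day 1, or 5.78% of the day 1 mean (log2 change −4.25 ± 0.34, adjusted p = 2.2e-06). Kif20a (ENSMUSG00000003779), the motor that brings the passenger complex to the midzone, had 49.96, 77.7 and 223 on day 3, against 1616, 1960 and 1719 on day 1 (log2 change −4.19 ± 0.43, adjusted p = 9.6e-06). Day 3 replicate 3 was the highest of its day in both genes. On day 5 Prc1 stood at 368, 290 and 196 and Kif20a at 274, 247 and 176. Neither separated from day 3: the log2 change of Kif20a was 1.25 ± 0.43 (adjusted p = 0.024), lost without day 3 replicate 1 (0.79, adjusted p = 0.092), day 3 replicate 2 (1.10, adjusted p = 0.079), day 5 replicate 1 (1.12, adjusted p = 0.077) or day 5 replicate 2 (1.19, adjusted p = 0.069), and at 1.86 without day 3 replicate 3. That of Prc1 was 0.82 ± 0.34 (adjusted p = 0.050), and it passed without day 3 replicate 3 (1.26, adjusted p = 0.0014) and without day 5 replicate 3 (1.07, adjusted p = 0.022).

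Both genes end inside a neighbour on the opposite strand: in GENCODE M21 all of the last 500 bases of their transcripts lie under exons of Cdc23 (Kif20a) and Rccd1 (Prc1). Whether the authors counted reads by strand is not given in the sources used here, so reads of such pairs may not have been told apart. Among the 440 tested genes with transcripts of at least 1000 bases and at least 80% of the last 500 so covered, the median log2 change was −0.98 for day 3 against day 1, with 61.8% called lower, and 0.88 for day 5 against day 3, with 60.0% called higher. Among 10480 genes with no such overlap the medians were −0.08, with 40.3% called lower, and 0.12, with 37.4% called higher. Cdc23 itself, an anaphase-promoting complex subunit, had 125, 193 and 324 normalized counts on day 3, against 1268, 1489 and 1396 on day 1, and 651, 488 and 427 on day 5. Rccd1 had 99.9, 145 and 121 on day 3, against 139, 158 and 146 on day 1 (log2 change −0.29, adjusted p = 0.17), and 290, 294 and 230 on day 5. The values of Kif20a and Prc1 are therefore uncertain, and the part of the overlap in them was not tested. With both genes set aside, the remaining 5 of this group fell in each step (7.85% of all tested genes were called lower in both).

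The 4 genes of anaphase entry and mitotic exit were split by day 3: Espl1 and Cdc20 fell, Pttg1 rose and Ube2c did not pass. Espl1, which encodes separase, had 567, 510 and 490 normalized counts on day 3, against 1273, 1453 and 1353 on day 1 (log2 change −1.38 ± 0.12, adjusted p = 3.9e-06), and 193, 161 and 151 on day 5. Cdc20, the activator of the anaphase-promoting complex, had 3384, 3409 and 3139 on day 3, against 4050, 4719 and 4122 on day 1 (−0.37 ± 0.10, adjusted p = 0.0066), and 887, 1034 and 1083 on day 5. Both fell without overlap in each step. Ube2c (ENSMUSG00000001403), the ubiquitin-conjugating enzyme of that complex, had 4257, 4005 and 3847 on day 3, against 3939, 4421 and 3794 on day 1. These ranges overlapped and the day 3 mean was 99.6% of the day 1 mean (adjusted p = 0.99), although the change was −0.62 after length and GC correction (adjusted p = 1.5e-04) and −0.27 when scaled to library totals (adjusted p = 0.028). On day 5 Ube2c dropped to 446, 609 and 592, 13.6% of the day 3 mean (log2 change −2.89 ± 0.12, adjusted p = 1.0e-07). Part of the sequence of Ube2c (16.0% of its 50-base stretches), Kif4 (14.5%), Cdc20 (10.6%) and Plk1 (10.4%) also occurs in other annotated genes, so a part of their reads is uncertain. Both strands were searched, so neighbours that overlap on the opposite strand are counted too. Opposite-strand exons lie over 16.7% of the Kif4 transcript, 7.09% of that of Plk1 and 2.96% of that of Cdc20, and over no part of that of Ube2c.

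Pttg1 (ENSMUSG00000020415), which encodes securin, the inhibitor of separase, was the single gene of the 43 that was called higher on day 5 than on day 1, under each alternative run. It had 1164, 1103 and 977 normalized counts on day 3, against 363, 374 and 391 on day 1 (log2 change 1.52 ± 0.15, adjusted p = 8.1e-06), and then dropped to 467, 639 and 719 on day 5 (−0.85 ± 0.15 against day 3, adjusted p = 6.4e-04). No day overlapped another, and its day 5 mean was 162% of the day 1 mean (log2 change 0.67 ± 0.15, adjusted p = 0.0021). Its rise by day 3 was 1.24 after length and GC correction.

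**Figure D4:**
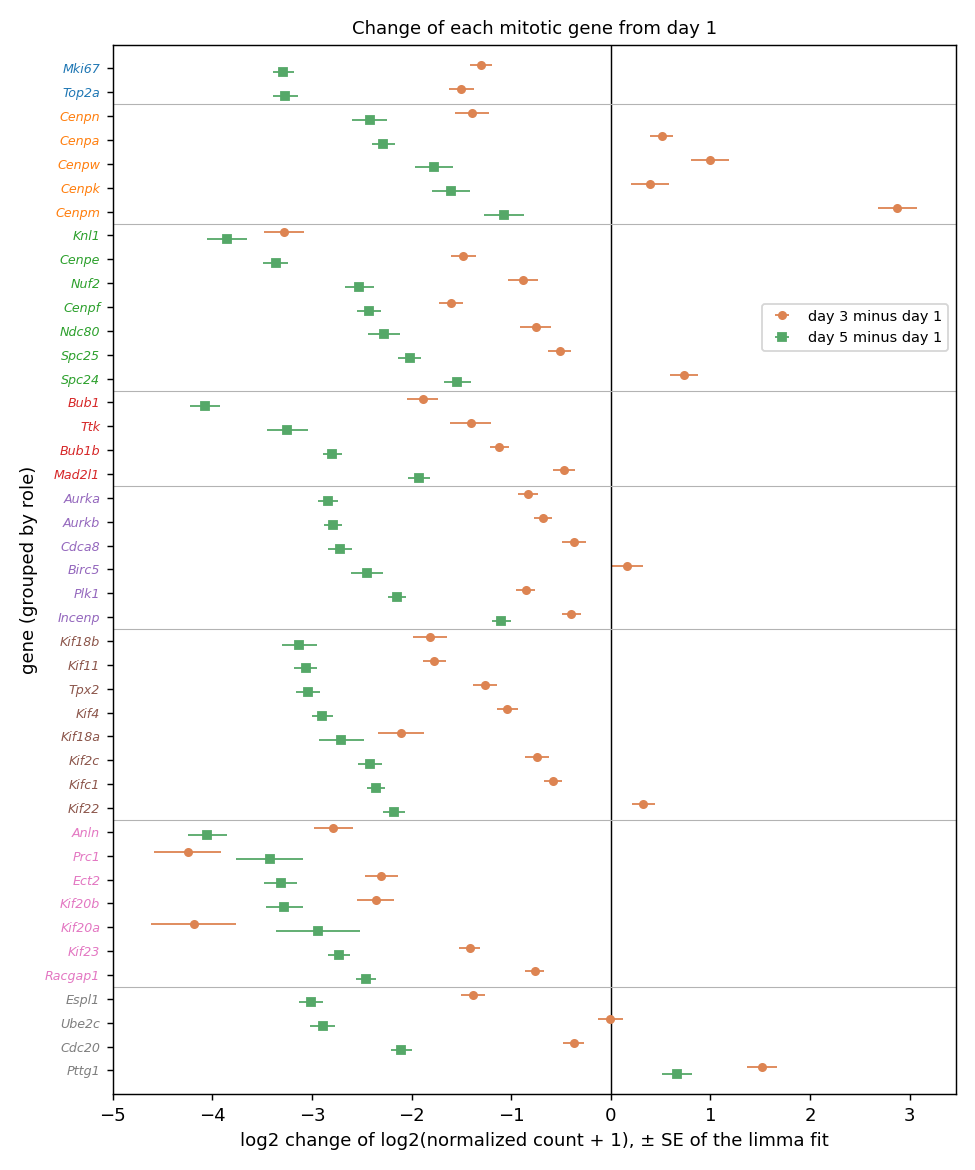
The log2 change of each mitotic gene from day 1 (horizontal axis), for day 3 (orange circles) and day 5 (green squares), with the SE of the limma fit as horizontal bars; genes are grouped by role. Every gene but Pttg1 lies left of 0 on day 5, while Cenpm, Pttg1, Cenpw, Spc24, Cenpa, Cenpk, Kif22 and Birc5 lie right of 0 on day 3.

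Whether a gene fell more in the first or the second step was tested as the difference of the 2 steps. Of the 32 genes that fell in both, the second fall was larger in 16, the first in 6 (Cenpf, Knl1, Kif20b, Kif18a, Anln and Ect2), and 10 did not pass. The same split over all tested genes that fell in both steps is not given here. Of those 6, Knl1 alone was called in the same direction after length and GC correction (0.93, adjusted p = 0.0016). The corrected values were 0.57 for Anln (adjusted p = 0.054), 0.50 for Kif18a (adjusted p = 0.17), 0.21 for Ect2 (adjusted p = 0.30), 0.04 for Kif20b (adjusted p = 0.91) and −1.06 for Cenpf. Over all 43 genes, 8 had a positive difference (36.8% of all tested genes) and 25 a negative difference (33.9%, with 70.7% in either direction). The split became 12 and 14 when scaled to library totals, a scaling that moved the median of all tested genes by 0.67, and 3 and 32 after length and GC correction. Shares of all tested genes in those 2 fits are not given here. Cdca8 (−1.98 ± 0.21), Birc5 (−2.77 ± 0.28), Ube2c (−2.88 ± 0.21) and Kif22 (−2.83 ± 0.19) fell more in the second step or fell only there, whereas the differences of Bub1 (−0.30 ± 0.26), Espl1 (−0.25 ± 0.21) and Kif23 (0.11 ± 0.19) did not pass. After the correction those 3 passed as negative, at −1.17 (Bub1), −0.96 (Espl1) and −0.48 (Kif23). The differences of Cdca8, Birc5, Ube2c and Kif22 were then smaller, at −1.16, −1.53, −1.66 and −2.27, and Birc5 and Ube2c also fell by day 3. The group medians of this difference were −3.30 for the inner kinetochore, −1.86 for anaphase entry and exit, −1.31 for kinases and passenger complex, −0.76 for the outer kinetochore, −0.66 for motors, −0.50 for the checkpoint and 1.44 for the central spindle and cytokinesis. After the correction they were −2.91, −1.28, −0.78, −1.06, −0.85, −1.11 and 0.21 in that order. For the 5 cytokinesis genes other than Kif20a and Prc1 the median was 1.29, and 0.038 after the correction. These counts rest on shared day 3 libraries.

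The change by day 3 followed transcript length, taken from the main transcript of each gene in GENCODE M21. Across the 43 genes the Spearman correlation of length with the log2 change for day 3 against day 1 was −0.731, and across 17056 tested genes it was −0.313. Genes are not independent replicates and all points share the same libraries, so the coefficients are descriptions. Of the 8 genes under 1.5 kb, 4 rose and 1 fell, where 48.9% of all tested genes of that length were called higher and 22.1% lower. Their median log2 change was 0.45, beside 0.66 over all tested genes of that length. Of the 11 between 1.5 and 2.5 kb, 2 rose and 9 fell (46.6% and 26.1% of all of that length), with medians of −0.68 and 0.33. All 11 between 2.5 and 4 kb fell (39.9% of all of that length), with medians of −1.42 and −0.13. All 13 over 4 kb fell (61.7% of all of that length), with medians of −1.50 and −0.70. The order among the 43 genes by day 3 thus moved with a length trend seen over all tested genes, whose part in the differences between roles was not tested.

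With that trend and the trend with GC content removed, 6 of the 43 genes were called higher on day 3 and 34 lower, of which 4 and 32 were called so without the correction. Shares of all tested genes in the corrected fit are not given here, so these counts only compare calls with and without the correction. Spc24 and Kif22 left the higher calls and Cenpk and Mad2l1 entered them; Mki67 and Mad2l1 left the lower calls and Birc5 and Ube2c entered them. Among the 36 genes called the same way with and without the correction, the change by day 3 shrank by over 1.5 times in 10 (Top2a, Cenpa, Cenpe, Cenpf, Nuf2, Knl1, Kif11, Kif20b, Kif4 and Tpx2) and grew by over 1.5 times in 5 (Aurkb, Cdca8, Plk1, Kifc1 and Cdc20). Examples are Top2a at −0.67, Kif4 at −0.43 and Kif11 at −0.97, and Plk1 at −1.40 and Cdc20 at −1.04. For day 5 against day 3 and day 5 against day 1 the corrected calls were the same genes in the same directions. The correlation of length with change for day 3 against day 1 was then −0.272. For day 5 against day 3 it had the opposite sign, at 0.447 over the 43 genes and 0.286 over all tested genes, and 0.0892 after removal over the 43. For day 5 against day 1 the correlation was −0.635 over the 43 genes and −0.038 over all tested genes, and −0.335 after removal over the 43.

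**Figure D5:**
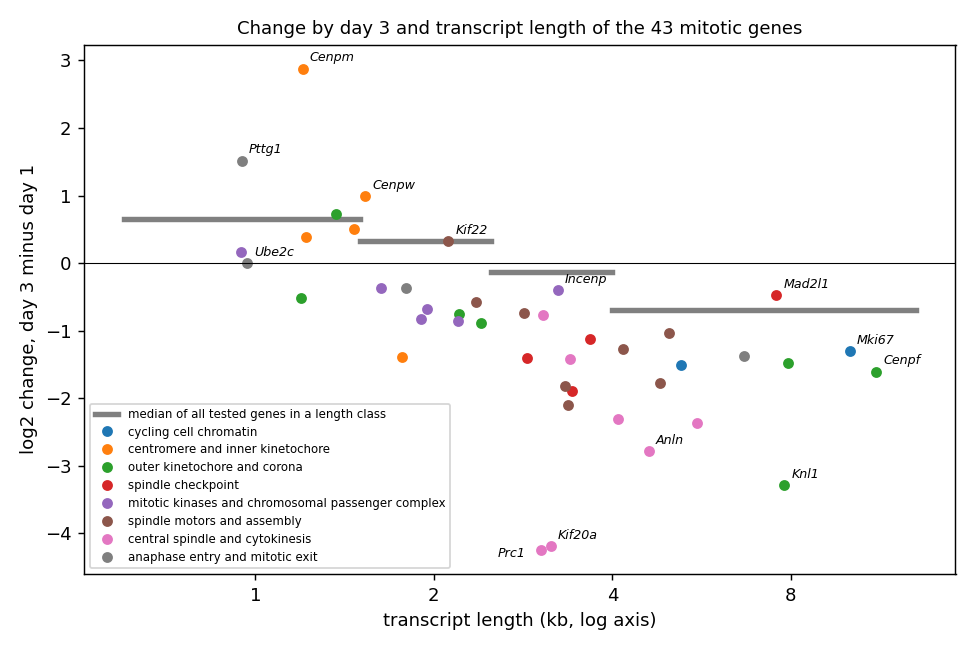
The log2 change for day 3 against day 1 (vertical axis) by transcript length in kb (log axis) for the 43 mitotic genes, coloured by role; grey bars are the medians of all tested genes in 4 length classes. Long genes such as Knl1 and Anln lie low and short genes such as Cenpm and Pttg1 lie high, and 35 of the points lie below 0.

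Per kb of transcript, Ube2c had the highest level of the 43 genes on day 1, with 4189 normalized counts per kb, followed by Birc5 (2629), Cdc20 (2396), Top2a (2311) and Cenpa (1675). Kif18a (157), Knl1 (184) and Cenpf (186) had the lowest. Pttg1 moved from rank 28 by this level on day 1 to rank 6 on day 3 and rank 1 on day 5, where it had 641 normalized counts per kb, beside 568 for Ube2c and 558 for Cdc20. Cenpm moved from rank 39 to rank 5 and rank 20 on those days. Division by length does not remove the trend of change with length, and both genes are short, so its part in these moves was not tested. The ranks also rest on the length of the main transcript of each gene. The median coefficient of variation between the 3 libraries of a day over the 43 genes was 9.09% (day 1), 8.55% (day 3) and 13.8% (day 5), and the highest was 79.5%, for Kif20a on day 3.

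The other genes of mitosis, 131 in 7 lists, also fell on balance. Between day 3 and day 1, 88 were lower and 18 higher (37.0% and 36.1% of all tested genes), with a median log2 change of −0.82; between day 5 and day 1, 110 were lower and 9 higher (37.7% and 36.7%), with a median of −1.97. The counts of the single lists by day 3 stand against the same shares. Values of these other genes, here and in the paragraphs below, are given without length and GC correction. The part of the length trend in their changes by day 3, rises and falls alike, was not tested. Among 28 other centromere and kinetochore genes, 19 fell and 4 rose by day 3. The largest rises were Cenpx (932 ± 159 on day 3, against 413 ± 41.9 on day 1) and Cenps (570 ± 130 against 261 ± 22.1), a histone-fold pair that binds DNA with the inner kinetochore, and the falls included Kntc1, a corona subunit (366 ± 18.4 against 1317 ± 146; SD, n = 3 each).

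Of 22 other checkpoint, kinase and cohesion genes, 19 fell and 1 rose by day 3, with Plk4, the kinase that starts centriole duplication, at 276 ± 61.9, against 1222 ± 130 on day 1 (log2 change −2.16 ± 0.22, adjusted p = 9.7e-06). Of 24 other spindle and cytokinesis genes, 19 fell and 2 rose. Stmn1, which encodes the microtubule-destabilising protein stathmin, rose to 6262 ± 607 on day 3, against 2270 ± 84.6 on day 1 (1.46 ± 0.15, adjusted p = 1.2e-05).

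The 8 condensin genes, whose products compact chromosomes, fell by day 3 in 7 cases, with Smc2 at 383 ± 81.2 on day 3, against 3384 ± 465 on day 1 (log2 change −3.15 ± 0.20, adjusted p = 7.2e-07). The exception was Ncaph2, at 4711 ± 80.7 against 3098 ± 194 (0.61 ± 0.10, adjusted p = 3.0e-04). The list for the anaphase-promoting complex has 17 genes, which include Fzr1, Fbxo5 and Ube2s beside the subunits. By day 3, 8 were called higher and 4 lower. By day 5 against day 1, 5 were higher and 8 lower (median log2 change −0.10), to be read against the same shares of all tested genes. The largest fall by day 5 was that of Fbxo5 (−1.97 ± 0.14, adjusted p = 4.2e-07). Anapc13, a small subunit of the complex, had 1905 ± 342 on day 3, against 314 ± 20.1 on day 1 (2.58 ± 0.19, adjusted p = 1.5e-06). Of 13 entry kinases and cyclins, 7 fell and 1 rose by day 3, and all 13 were lower on day 5 than on day 1. Ccnb1 (cyclin B1) fell to 1260 ± 153 on day 3, against 4197 ± 281 on day 1 (−1.74 ± 0.10, adjusted p = 5.9e-07), whereas Ccnb2 (cyclin B2) rose to 2064 ± 155, against 1542 ± 23.1 (0.42 ± 0.12, adjusted p = 0.0099).

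Of 19 regulators of these genes, 13 were lower and 1 higher on day 3 than on day 1. Mybl2, which encodes B-MYB, had 2642 ± 438 normalized counts (day 1), 826 ± 27.1 (day 3) and 153 ± 24.6 (day 5) (SD, n = 3 each; log2 change −4.10 ± 0.14 for day 5 against day 1, adjusted p = 6.5e-09). The repressor E2f8 fell too (−4.05 ± 0.19, adjusted p = 3.2e-08), to 105 ± 24.6 on day 5, against 1733 ± 288 on day 1. Lin37, a MuvB subunit needed for repression by DREAM, was the 1 that rose by day 3, to 643 ± 67.6, against 219 ± 19.6 on day 1 (1.55 ± 0.17, adjusted p = 1.6e-05). The largest falls by day 3 were E2f7 (−2.68 ± 0.18, adjusted p = 8.6e-07) and Rbl2 (−2.30 ± 0.33, adjusted p = 9.2e-05). Rbl2 had 454 ± 74.5 on day 1, 97.4 ± 46.6 on day 3 and 375 ± 146 on day 5. What these opposite moves mean for DREAM was not tested. The 30 DNA replication genes, which act earlier in the cycle, had a negative step difference in 25 cases (33.9% of all tested genes): between day 3 and day 1, 16 were lower and 7 higher (median log2 change −0.42), and between day 5 and day 3 all 30 were lower (−2.05; 32.4% of all tested genes).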

How the data were processed

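Total RNA of the 9 libraries was sequenced after preparation with the VAHTS Universal V8 kit, per the labels' protocols, and the authors deposited log2 values of size-factor-normalized counts. HISAT2 2.1.0, DESeq2 1.36.0 and GRCm39 are named per the submitters' processing notes; which tool counted the reads, with which annotation and whether by strand, is not given in the sources used here. Of 57107 lines, 359 repeated a gene and were dropped; cells with no read hold an error text and were set to 0. Values were turned back into normalized counts and into whole reads, 100% of which came out within 0.01 of a whole number. The 9 libraries held 16.4 to 35.1 M such reads, and no column of other samples was present.

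The main test was limma 3.58.1 in R 4.3.3 on log2(normalized count + 1), 1 mean per day over all 9 libraries, with Benjamini-Hochberg adjustment over 17338 genes at a threshold of 0.05; the pseudocount understates changes of low genes. The count test on the recovered reads, voom, called 12690, 11426, 13042 and 12020 genes for day 3 against day 1, day 5 against day 3, day 5 against day 1 and the difference of steps, where the main test called 12665, 11664, 12909 and 12264. The fit was run on simulated data in which few genes changed, on day 3 alone, with the same dispersion for every gene and no length trend. That setting differs from these data, where most genes were called, so it does not show how reliable the calls are here. Transcript length, GC content, shared sequence and overlaps came from GENCODE M21 (GRCm38), matched by gene identifier.

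The 43 genes and the other lists were chosen with earlier results of these data known. Full values were given for genes named by role and for the largest rise and fall of each comparison, and in the other lists at most the 2 largest changes each way were named; Cenpk, Cenpn, Kif22, Kif18a, Racgap1, Rccd1 and Kifc5b were added after their values were seen. Alternatives were other pseudocounts, filters, scalings, the length and GC trend, voom, only the 2 days compared, a replicate block and leaving out each library.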

Additional observations from a re-analysis of the deposited data

How the results depend on the processing

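The fall by day 5 against day 1 kept its 42 lower and 1 higher genes, and the F test its 43, under every alternative run. Shares of all tested genes under the alternatives are not given here, so the counts in this section only show how far the calls held. Leaving out each library in turn gave 5 to 7 higher and 33 to 34 lower genes for day 3 against day 1, 0 to 2 and 39 to 41 for day 5 against day 3, and 8 to 10 and 21 to 26 for the difference of steps. The median log2 changes then ranged over −1.04 to −0.84, −1.74 to −1.60, −2.80 to −2.64 (day 5 against day 1) and −0.71 to −0.53; the ends −1.04 and −0.53 came without day 3 replicate 3.

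Day 5 against day 3 had 2 genes called higher with pseudocount 8, the deposited log2 values, TMM scaling and scaling to library totals, and 0 with only the 2 days in the fit. Scaling to library totals moved the median of all tested genes by −0.24, 0.38 and 0.67 for the first step, the second step and their difference, and the medians of the 43 genes to −1.15, −1.35 and −0.074, with 14 negative step differences. Quantile normalization gave −0.72 for the first step and −0.90 for the difference. After length and GC correction the medians came to −0.75 for the first step, −2.57 over the whole course and −1.04 for the difference, with 3 positive step differences. That correction reversed day 3 against day 1 for Mad2l1 (0.72), Birc5 (−0.45) and Kif22 (−0.11), and the step difference of Cenpf (−1.06), Kif11 (−0.66), Kif23 (−0.48) and Plk1 (0.24). Scaling to library totals reversed the step difference of Bub1b (0.046), Plk1 (0.16) and Tpx2 (0.092). The cause was not tested.

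Same-numbered libraries had correlations of −0.311 to 0.141 in their deviations from the day means. Differently numbered libraries were not compared, so whether the replicate numbers pair the samples is not settled by these values. With the replicate block the counts were 6 higher and 34 lower, 1 and 39, 1 and 42, and 8 and 23 for the difference. Knl1 (adjusted p = 0.053) and Kif18a (adjusted p = 0.071) no longer passed between day 5 and day 3 in that fit. Precision is limited by the 3 libraries a day and their depth.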
